A study of Mus musculus with 14 samples.

Results

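Cytosolic ribosomal protein genes encode the proteins of the large (Rpl) and small (Rps) subunits of the ribosome that translates nuclear-encoded mRNA. The members were the protein-coding mouse genes whose symbol is Rpl or Rps followed by a number, together with Rplp0, Rplp1, Rplp2 and Rpsa. The Rps6k kinases, pseudogenes and Rps19bp1, a protein that binds Rps19, were left out. This gave 88 of 21900 protein-coding genes. H3K4me3, trimethylation of lysine 4 of histone H3 and a mark of promoters in use or held ready, was read at the strongest summit (the point of highest signal within a called peak) within 2 kb of each gene, chosen by its mean over all 13 libraries. A summit was found for 82 members and for 15248 coding genes. Rpl10l, Rpl39l, Rpl32l, Rpl37rt, Rps23rg1 and Rps27rt had none.

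The mark was measured by chromatin immunoprecipitation and sequencing in prefrontal cortex of male C57BL/6J mice aged 10 to 12 weeks. The control group (3 libraries) lived in divided cages and met no aggressor. The CSDS10 and CSDS30 groups (5 libraries each) had chronic social defeat stress, in which a mouse meets an unfamiliar aggressive CD1 mouse every day and lives beside one behind a perforated partition, for 10 or 30 days. Their cortex was taken 24 hours after the last defeat, and behaviour had been tested shortly before that. Male cells carry 1 X chromosome and a pair of each autosome. Whether the numbered libraries of a group are different mice is not in the labels, so every p-value refers to spread among libraries, which may be technical.

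Ribosomal protein genes are housekeeping genes whose products are needed in fixed proportions, since each ribosome holds a single copy of most of them. Many of their mRNAs begin with a C followed by a run of pyrimidines, the terminal oligopyrimidine tract, through which the kinase mTOR and the RNA-binding protein Larp1 control their translation. In neurons, ribosomes translate mRNA both in the cell body and near synapses, and phosphorylation of ribosomal protein S6, the product of Rps6, is widely used as a marker of neuronal activity.

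Between 4512817 and 10887911 reads fell on the 153207 summits of a library. The smallest read number at any member in any library was 24 and the largest 272. CSDS10 replicate 2 and CSDS30 replicate 2 stood apart from the other libraries, with mean correlations to the rest of 0.794 and 0.785 (Pearson's r of log2 values over summits) against 0.818 to 0.868 elsewhere. The members followed them: the median member was shifted by 0.14 in the former and by -0.19 in the latter on the log2 scale, beside 0.16 and -0.15 for the median coding gene. These 2 libraries were also shallow, with 5677624 and 4750679 reads on summits. CSDS10 replicate 4, the shallowest at 4512817, had the next lowest mean correlation, 0.818. The part of depth in the correlations was not tested. Marker genes of the labelled tissue carried summits, with 8 of 8 excitatory neuron markers and 6 of 8 inhibitory neuron markers. Of 8 microglial markers 4 had none (Cx3cr1, Csf1r, Aif1 and Itgam), and the summed level of the other 4 spanned 140.4 to 163.3 in control, 159.2 to 210.3 in CSDS10 and 158.8 to 195.1 in CSDS30. The control levels of these 4 ran from 15.2 to 99.9 with a median of 17.7, so the highest weighs most in the sum. The 6 inhibitory neuron markers (Sst and Vip had none) summed to 205.2 to 219.8 in control, 136.9 to 225.6 in CSDS10 and 216.9 to 263.8 in CSDS30. In the same order, excitatory neuron markers summed to 406.6 to 468.8, 364.3 to 590.0 and 346.8 to 545.6. Astrocyte markers had 384.0 to 450.7, 402.3 to 485.7 and 347.7 to 446.4. Oligodendrocyte markers had 268.2 to 317.9, 257.7 to 293.6 and 259.8 to 325.1. Endothelial markers had 245.8 to 344.5, 261.7 to 347.0 and 244.3 to 338.7. In every list the ranges of the groups overlapped. The part of cell composition in the results was not tested, and in bulk tissue a weaker mark per cell and fewer cells with the mark cannot be told apart.

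The promoters below show 2 sequence features that part of the members carry near their start sites. RefSeq windows (build GRCm38.p6, the assembly of mm10) were matched for 68 members by gene identifier, 62 of them with a summit. They run from 250 bases before the listed start to 50 after it. Each sequence here is the 120 bases from 100 before the start to 20 after it, 5′ to 3′ on the gene's strand. Capitals mark the run of C and T that crosses or begins at the listed start, and each CCGGAAG or its complement, the core bound by ETS-family factors such as GABP. Rps6, Rps10, Rpl35 and Rpl14 begin with the pyrimidine tract, Rpl11 and Rps25 were among the members with the highest level of the mark, and Rpl39 and Rps4x were among the lowest. The tract is more frequent in this selection than among the members, and Rps4x has no marked stretch.
Rps6 (chr4:86857348-86857467, minus strand): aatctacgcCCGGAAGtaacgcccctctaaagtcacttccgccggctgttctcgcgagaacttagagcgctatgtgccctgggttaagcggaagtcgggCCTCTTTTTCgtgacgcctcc
Rps10 (chr17:27635225-27635344, minus strand): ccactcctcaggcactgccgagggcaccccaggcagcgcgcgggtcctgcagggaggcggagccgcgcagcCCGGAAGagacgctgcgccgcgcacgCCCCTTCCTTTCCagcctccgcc
Rpl35 (chr2:39005112-39005231, minus strand): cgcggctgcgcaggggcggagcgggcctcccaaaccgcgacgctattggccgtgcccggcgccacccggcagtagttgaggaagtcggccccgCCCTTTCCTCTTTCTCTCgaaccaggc
Rpl14 (chr9:120571417-120571536, plus strand): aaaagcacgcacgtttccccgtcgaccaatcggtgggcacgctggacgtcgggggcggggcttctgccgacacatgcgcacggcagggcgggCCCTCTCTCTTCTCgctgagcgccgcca
Rpl11 (chr4:136053374-136053493, minus strand): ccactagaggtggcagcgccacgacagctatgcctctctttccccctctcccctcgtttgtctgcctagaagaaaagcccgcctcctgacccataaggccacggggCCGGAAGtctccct
Rps25 (chr9:44407614-44407733, plus strand): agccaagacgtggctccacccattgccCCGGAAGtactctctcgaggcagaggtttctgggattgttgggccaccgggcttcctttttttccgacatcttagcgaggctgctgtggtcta
Rpl39 (chrX:37085203-37085322, minus strand): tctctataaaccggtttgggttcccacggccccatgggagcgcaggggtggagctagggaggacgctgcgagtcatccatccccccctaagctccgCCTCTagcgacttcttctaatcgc
Rps4x (chrX:102189372-102189491, minus strand): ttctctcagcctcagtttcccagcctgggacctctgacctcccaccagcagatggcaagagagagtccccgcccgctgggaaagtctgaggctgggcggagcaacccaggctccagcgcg
The listed start is the annotated one, and initiation was not measured here.

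A C followed by 4 pyrimidines stood exactly at the listed start in 11 of the 62 members with a window (17.7%), beside 2.33% of the 12148 coding genes with a window and a summit and 2.2% of all 17492 windows. The 11 were Rpl14, Rpl15, Rpl28, Rpl35, Rpl38, Rplp2, Rps6, Rps10, Rps15a, Rps18 and Rps27. When such a run could begin up to 10 bases away from the listed start, 29 members (46.8%) and 31.7% of those coding genes had one. The members with the tract at the start had a median control level of 106.4, and the other 51 had 113.0.

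Of the motifs searched on both strands of the same windows, the ETS core CCGGAAG was found in 23 members (37.1%), 16.5% of coding genes with a summit and 12.2% of all windows. AAGATGG, the core bound by YY1, was in 9 members (14.5%), 6.64% of those coding genes and 6.37% of windows. TGACGTCA, the cyclic AMP response element, was in 5 members (8.06%), 3.15% of coding genes and 2.37% of windows. The GC box GGGCGG was in 37 members (59.7%), beside 64.6% of coding genes and 47.6% of windows. TATAAA, the TATA box, was in 6 members (9.68%), 6.96% of coding genes and 13.05% of windows, the 6 being Rpl22l1, Rplp0, Rps2, Rps28 and the X-linked Rpl36a and Rpl39. The median level was 111.7 in members with CCGGAAG and 113.0 in those without. CCGGAAG ends with the letters that begin AAGATGG, so a single stretch can hold both, and a match describes letters in a window only.

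In control cortex the ribosomal protein genes mostly lay above the median coding gene in the level of the mark, from 41.8 to 190.9. Levels are normalised read counts at the strongest summit, reads divided by a size factor for each library, and are not corrected for input. Their middle members, from the lower to the upper quartile, spanned 101.4 to 129.9, beside 68.5 to 118.3 for coding genes and 108.0 to 135.9 for mitochondrial ribosomal protein genes. The median member stood at 114.8 ± 0.834 (mean and SD of per-library medians, n = 3) and the median coding gene at 97.1 ± 0.784. Of the 82 members, 65 (79.3%) lay above the coding median and 38 (46.3%) above the upper quartile of coding genes, while 4 lay below the lower quartile. Large-subunit genes (115.7 ± 0.548, 50 genes) and small-subunit genes (113.7 ± 2.19, 32 genes) had similar levels. Other housekeeping groups were at a similar height, at 118.6 ± 2.27 for 78 mitochondrial ribosomal protein genes, 119.5 ± 5.69 for 81 nuclear genes of oxidative phosphorylation and 122.4 ± 6.36 for 38 proteasome subunit genes.

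Rpl11, whose free protein binds the p53 regulator Mdm2 when ribosome assembly fails, had the highest control level, at 173, 182 and 218 in the 3 control libraries (190.9 ± 23.7, SD, n = 3). That was above 99.9% of coding genes. Rpl36 had 158.8 ± 21.7 and Rps25 152.2 ± 11.2. The summits of Rpl36 and Rps25 were also the strongest of the adjacent genes Lonp1 and Trappc4, so their level cannot be ascribed to a single gene. Rpl36 differed from Rpl11 and from Rps25 by less than the sum of the SDs of each pair. Rplp0, the stalk protein often used as a reference transcript, had 125.6 ± 4.43, Rpsa, which doubles as a laminin receptor, 125.3 ± 14.99, and Rpl13a, a further common reference gene, 111.3 ± 20.5.

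**Figure D1:**
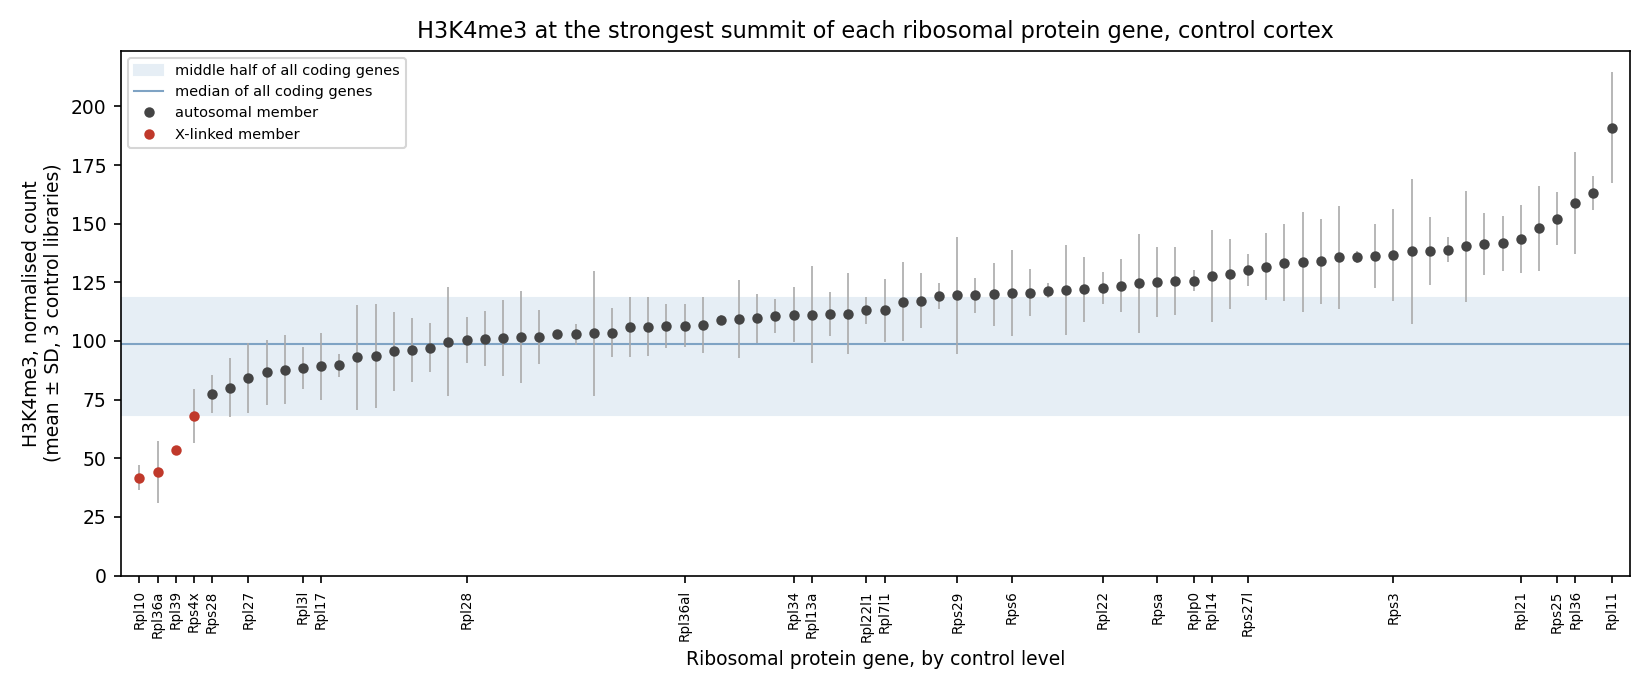
Control level of the 82 ribosomal protein genes with a summit, in ascending order, with names for some members described in the text. The y axis is the normalised count (mean ± SD, n = 3), the blue line the median of all coding genes and the shaded band their interquartile range. The 4 red points, the X-linked Rpl10, Rpl36a, Rpl39 and Rps4x, are the lowest, and Rpl11 at 190.9 is the highest.

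The 4 lowest members were the 4 on the X chromosome. Rpl10, a protein of the large subunit joined late in its assembly, had 45.4, 44.3 and 35.5 in the control libraries (41.8 ± 5.41, SD, n = 3). Rpl36a had 30.7, 57.3 and 44.7 (44.3 ± 13.3), and its value in the first of these libraries was the lowest of any member there. Rpl39, a small protein at the exit tunnel, had 51.7, 55.6 and 52.7 (53.3 ± 2.02). Rps4x, the X-linked form of S4, had 73.4, 54.7 and 75.6 (67.9 ± 11.5). The 4 genes are not neighbours on the chromosome, and the next lowest member, the autosomal Rps28, had 77.4, so Rps4x and Rps28 did not differ beyond their spread. Their order among themselves was not fixed either, since the values of Rpl36a overlapped those of Rpl10 and of Rpl39.

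The same gap appeared in every library. The median of the X-linked members was 0.450 ± 0.0319 times that of the 78 autosomal members (mean and SD over 13 libraries), from 0.401 in CSDS10 replicate 2 to 0.507 in CSDS30 replicate 3. All 4 were among the 10 lowest members in 12 of the 13 libraries, the exception being CSDS10 replicate 4, where Rps4x ranked at 12 from below. Coding genes as a whole showed a similar ratio, 0.492 ± 0.0164 with a range of 0.472 to 0.521, so X-linked coding genes in general shared the low level. With only the members whose summit was no other gene's, 4 X-linked and 53 autosomal, the ratio was 0.457 ± 0.0341. Every library came from male tissue, and the part of X copy number in the ratio was not tested. Rpl36al, an autosomal gene that encodes a protein nearly identical to that of Rpl36a, stood at 106.5 ± 9.16, but its summit lay 428 bp upstream of its listed start and was also the strongest of the neighbouring gene Mgat2.

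**Figure D2:**
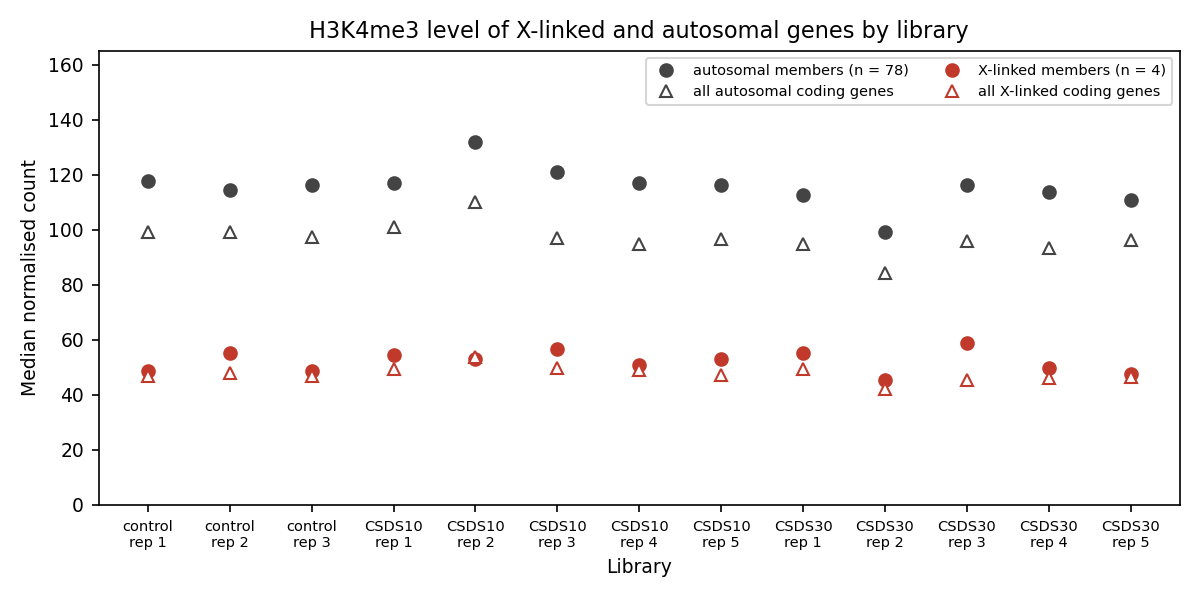
Median normalised count of X-linked (red) and autosomal (grey) genes in each of the 13 libraries, for the 4 and 78 ribosomal protein genes (circles) and for all coding genes (triangles). In each library the X-linked medians lie at 45.3 to 58.9 for members, below the autosomal medians of 99.2 to 132.0.

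Paralogues differed in whether a summit could be ascribed to them. Rpl10l and Rpl39l, retrogene copies of the X-linked Rpl10 and Rpl39 that are known for expression in the testis, had no summit within 2 kb. Rpl22l1, at 113.0 ± 5.55, was close to its paralogue Rpl22, at 122.5 ± 6.87. Rps27l, a p53-inducible copy of Rps27, had 130.4 ± 6.82 at a summit 5 bp upstream of the nearer of its 2 listed starts. Rpl3l, the form of Rpl3 expressed in striated muscle, was given 88.6 ± 9.03, but that summit lay 4060 bp from its nearest listed start and was the strongest of Msrb1, and no summit lay within 1 kb of either listed start. Rpl7l1 was given 113.0 ± 13.4 at a summit 9724 bp away, the strongest of 2310039H08Rik, while the summit 326 bp into Rpl7l1 itself had 84.0 ± 5.58. In all, 25 members shared their strongest summit with another coding gene.

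The strongest summit of a ribosomal protein gene usually lay just inside the gene. Where a gene had several listed starts, the one nearest this summit was taken. The median distance of the strongest summit from the listed start was 170.5 bp downstream in the 62 members with a window and 145 bp in the 12148 coding genes. The summit fell 100 to 200 bp into the gene in 27 members (43.5%), beside 30.6% of coding genes, and 100 to 700 bp into it in 48 (77.4%), beside 54.8%. It lay within 1 kb upstream in 9 members (14.5%) and 18.1% of coding genes. Rps6 is a typical case, with its summit at chr4:86857227-86857228, 140 bp into the gene. Rpl14 had its summit at chr9:120571629-120571630, 112 bp in.

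Over all summits of the members, not only the strongest, the bins below were chosen after the profile was seen. Each held more members than the bin on either side of it. A summit fell 100 to 150 bp from the start in 48.4% of members, 300 to 350 bp in 58.1%, 500 to 550 bp in 43.5%, 650 to 700 bp in 40.3% and 800 to 850 bp in 32.3%. The corresponding shares of all coding genes were 42.0%, 32.9%, 21.8%, 24.1% and 17.7%. Coding genes had their own maximum near the third of these bins at 450 to 500 bp (29.5%), where 37.1% of members had a summit. Further bins also held more members than that of 800 to 850 bp. They were 150 to 200 bp (35.5% of members, 20.5% of coding genes) and, upstream of the start, -450 to -400 bp (35.5% and 14.4%). No member had a summit in the first 50 bp after the start, where 8.51% of coding genes had one. The immunoprecipitated fragments were of mononucleosome size by the protocol, and a spacing of summits was not tested.

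The highest summit within 1 kb downstream exceeded the highest within 1 kb upstream in 54 of 62 members (87.1%) and in 72.4% of coding genes. Among members with a summit of their own it did so in 40 of 41 (97.6%), and among those sharing it with another gene in 14 of 21 (66.7%). The median upstream level was 52.4 in the former and 89.6 in the latter. The downstream medians were 111.3 and 108.1. The shares include genes with no summit within 1 kb upstream, 7 of the 62 members and 1998 of the 12148 coding genes. Of these 7 members, 5 had a summit of their own and 2 shared it.

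**Figure D3:**
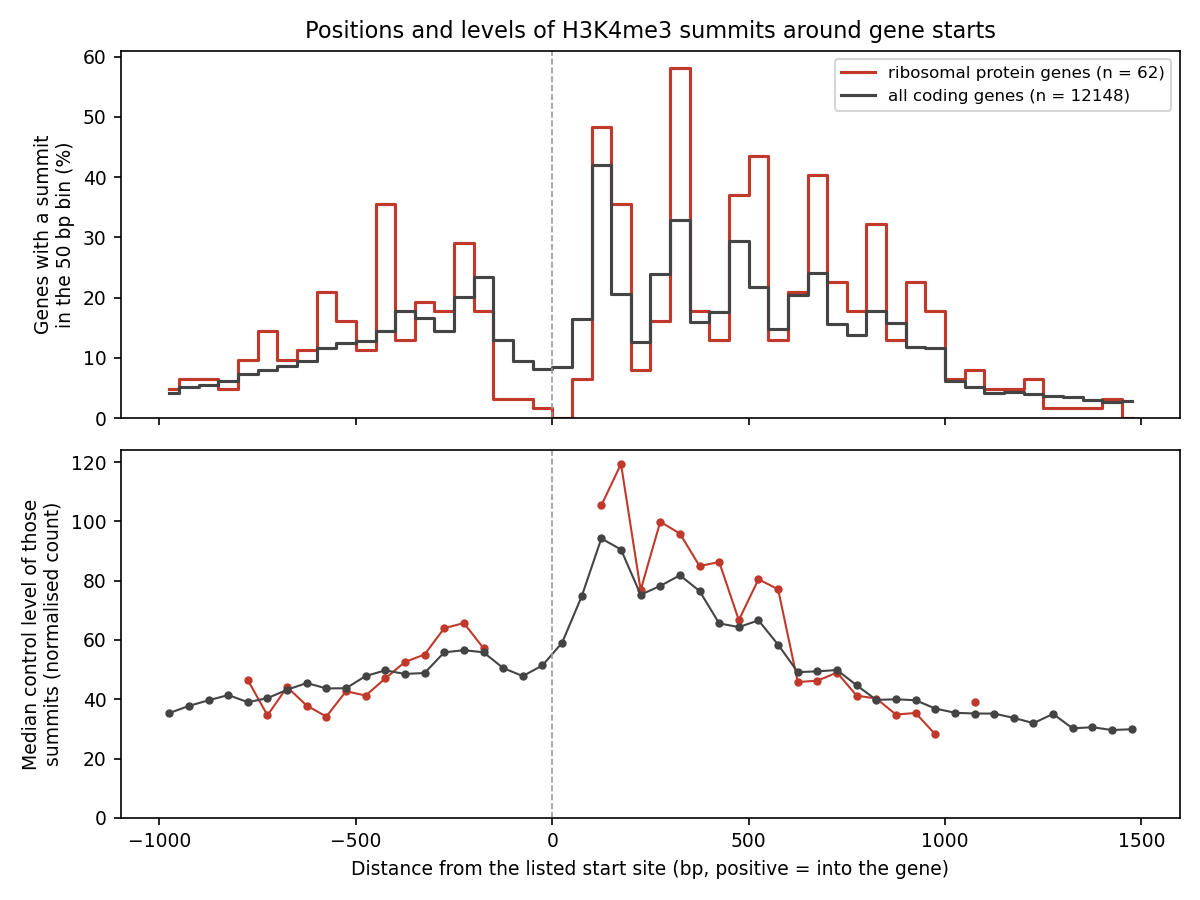
Upper panel: share of genes with a summit in each 50 bp bin around the listed start, for 62 ribosomal protein genes (red) and 12148 coding genes (grey). Lower panel: median control level of those summits where at least 5 genes had one. Members peak at 300 to 350 bp (58.1%) and have none at 0 to 50 bp, and their levels are highest at 150 to 200 bp (119.4).

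Members were short genes, with a median length of 3179 bp beside 24671 bp for coding genes with a summit, and had as many summits within 2 kb (median 9 in both). Among genes of 1000 to 10000 bp, the median level was 113.0 in 80 members and 96.6 in all 3639 coding genes of that length. Small nucleolar RNA genes, whose products guide the modification of ribosomal RNA, lay inside 30 members (36.6%) and 2.22% of coding genes with a summit. The 30 hosts held 59 such genes, with 4 each in Rpl7a and Rpl13a among others. Their median level was 119.7, and that of the other 52 members 111.4.

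The design asks whether the mark differs after 10 or after 30 days of defeat, and between both durations. No member passed the threshold (adjusted p under 0.05) in any comparison, in limma on log2(value + 1) with Benjamini-Hochberg adjustment over 152270 summits. The background was the same, with 0 summits called in each comparison (0%). edgeR called none either, and DESeq2 called 4 summits in CSDS30 against CSDS10, of which none was a member's strongest. At unadjusted p under 0.05, limma counted 4891 of the 152270 summits in CSDS10 against control, 5194 in CSDS30 against control and 7795 in CSDS30 against CSDS10. Where nothing differs, that threshold passes a share of about 0.05 of the summits. The 95% interval of a member's difference was ± 0.31 in the median for both comparisons with control and ± 0.27 for CSDS30 against CSDS10 on the log2 scale, before any adjustment. Differences beyond those widths were not called either, among them the -0.52 of Rpl34 given below. The comparisons share libraries pairwise, and their values are given side by side.

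After 10 days the members were on balance slightly above control. The median of their levels was 119.4 ± 6.29 (SD, n = 5) in CSDS10 and 114.8 ± 0.834 (n = 3) in control. The median log2 fold change was 0.04, beside 0.01 for coding genes, and 54 of 82 members had a value above 0, where 53.3% of coding genes did. Without CSDS10 replicate 2, the library that stood apart, the median was 0.01 (coding genes -0.02) and 45 of 82 lay above 0 (46.5% of coding genes). At unadjusted p under 0.05 there were 2 members (2.8% of coding genes reached it, 1.78% as higher), Rpl14 and Rpl27, both higher, and edgeR and DESeq2 counted 3 each.

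Rpl14, a large-subunit protein whose gene begins with the pyrimidine tract shown above, had 150, 112 and 121 in control and 148, 220, 136, 181 and 153 in CSDS10. The highest value came from CSDS10 replicate 2, the library that stood apart, and the groups overlapped. The log2 fold change was 0.38 ± 0.14 (SE, limma, unadjusted p = 0.0122, adjusted p = 0.9999). Rpl27 had 101, 80.8 and 71.1 in control and 100, 116, 129, 119 and 114 in CSDS10, with a log2 fold change of 0.46 ± 0.18 (limma, unadjusted p = 0.0141). Its lowest CSDS10 value was level with its highest control value. The third in that direction was Rps3, a small-subunit protein that also acts in DNA repair, at 136.7 ± 19.5 in control and 165.4 ± 21.8 in CSDS10 (0.27 ± 0.13).

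Rpl36al was the single member whose CSDS10 and control libraries did not overlap (2.87% of coding genes did not, 1.65% as higher), with 114, 109 and 96.3 in control and 141, 145, 134, 156 and 121 in CSDS10. Its log2 fold change of 0.38 ± 0.19 had an unadjusted p of 0.0563 in limma, and its summit is shared with Mgat2. In the other direction Rplp0 gave -0.22 ± 0.16 and Rpl22 gave -0.18 ± 0.17, and each SE was near the size of the difference.

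After 30 days the members were on balance slightly below control, and so were coding genes at large. The median of member levels was 108.9 ± 6.51 (n = 5) in CSDS30. Their median log2 fold change was -0.07, as in coding genes (-0.07), and 28 of 82 lay above 0, where 34.1% of coding genes did. Without CSDS30 replicate 2 the median was -0.02 (coding genes -0.04) and 36 of 82 lay above 0 (39.6% of coding genes), so that library carried most of the members' median. At unadjusted p under 0.05 there were 4 members, Rpl34, Rps6, Rpl17 and Rpl21, all lower (4.91% of coding genes reached that p in either direction and 4.41% as lower).

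Rps6 had 140, 103 and 118 in control and 118, 84.3, 86.2, 87.3 and 90.6 in CSDS30. All but CSDS30 replicate 1 lay below the lowest control library, and that replicate lay inside the control range. The log2 fold change was -0.36 ± 0.15 (SE, limma, unadjusted p = 0.0184, adjusted p = 0.99998). Rpl34 had 97.8, 120 and 116 in control and 107, 46.9, 77.8, 77.9 and 87.0 in CSDS30, with a log2 fold change of -0.52 ± 0.19 (limma, unadjusted p = 0.00997). The lowest of these came from CSDS30 replicate 2, the library that stood apart, and without it the difference was -0.35. Rpl17 had 102, 73.8 and 91.7 in control and 74.4, 56.2, 73.6, 60.7 and 79.7 in CSDS30 (-0.37 ± 0.17, limma, unadjusted p = 0.039).

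Rpl21 was the single member whose CSDS30 and control libraries did not overlap (3.69% of coding genes did not, 3.11% as lower), at 147, 128 and 156 in control and 124, 109, 126, 123 and 106 in CSDS30. Its log2 fold change was -0.28 ± 0.14 (limma, unadjusted p = 0.0451). Among members with a higher level, the smallest p-values belonged to Rpl28, at 100.3 ± 9.88 in control and 120.6 ± 14.98 in CSDS30 (0.26 ± 0.14), to Rpl36 (0.23 ± 0.13) and to Rps29 (0.27 ± 0.16). These 3 SEs were more than 0.5 times the difference. Without control replicate 2 Rpl36 gave 0.12 and Rps29 0.17, without CSDS30 replicate 3 Rpl36 gave 0.13, and without control replicate 1 Rps29 gave 0.43.

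**Figure D4:**
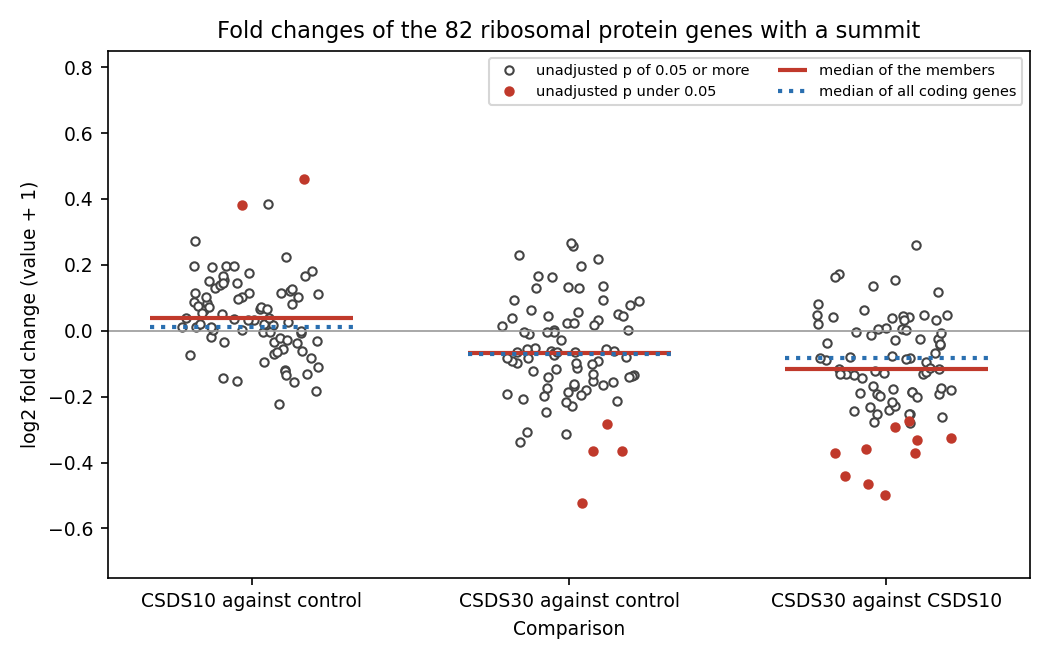
Log2 fold change of each of the 82 members in the 3 comparisons (points, spread sideways at random), with filled red points at unadjusted p under 0.05. Red lines are the medians of members (0.04, -0.07 and -0.12) and dotted blue lines those of all coding genes (0.01, -0.07 and -0.08). No point passes the adjusted threshold.

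Between 30 and 10 days the members' median log2 fold change was -0.12, beside -0.08 for coding genes, and 22 of 82 lay above 0, where 31.6% of coding genes did. At unadjusted p under 0.05 there were 10 members, all lower (9.74% of coding genes in either direction, 9.03% lower), a share of members near the background. They were Rps6, Rpl17, Rpl36al, Rpl14, Rpl26, Rpl15, Rpl21, Rps27a, Rpl34 and Rps7. edgeR counted 9 and DESeq2 11. With loess offsets, which level out differences between libraries that depend on signal strength, the members' median was 0.01 and 43 of 82 lay above 0 (49.75% of coding genes). With them 5 members were at unadjusted p under 0.05, of which 4 were lower, beside 5.64% of coding genes in either direction. In CSDS30 against control the same offsets gave a median of 0.01 and 47 of 82 above 0 (48.6% of coding genes). The median coding gene moved with it, from -0.07 to -0.01 in CSDS30 against control and from -0.08 to -0.001024 in CSDS30 against CSDS10. TMM and total-read scaling kept the members' medians below 0, at -0.07 and -0.05 in CSDS30 against control and at -0.11 and -0.09 in CSDS30 against CSDS10. Without the pair of libraries that stood apart, the median of CSDS30 against CSDS10 was -0.05 and 7 members were at that p, all lower (coding genes -0.03 and 4.91%).

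Rps6 had the smallest p-value of any member in this comparison. Its CSDS10 libraries had 127, 145, 121, 120 and 128, and its CSDS30 libraries, given above, lay between 84.3 and 118. The highest CSDS30 value was just below the lowest CSDS10 value, so the groups did not overlap. The log2 fold change was -0.47 ± 0.13 (SE, limma, unadjusted p = 0.000883, adjusted p = 0.963), and it was -0.36 with loess offsets. The groups did not overlap in Rplp1 and Rpl26 either (3 members, where 1.12% of coding genes did not overlap, 1.01% as lower). Rpl26, at 125.3 in the mean of CSDS10 and 98.2 in CSDS30, gave -0.37 ± 0.14, and Rplp1, a stalk protein, gave -0.21 ± 0.14.

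Rpl36al gave the largest difference of the members, -0.50 ± 0.17 (limma, unadjusted p = 0.00547), with 128, 49.98, 104, 115 and 117 in CSDS30. The value of 49.98 came from CSDS30 replicate 2, and without that library the difference was -0.26. Rpl17 had 109, 94.6, 79.1, 91.5 and 93.5 in CSDS10 and gave -0.44 ± 0.15 (limma, unadjusted p = 0.00541), with a slight overlap at its highest CSDS30 value. Rpl14 gave -0.36 ± 0.12 (limma, unadjusted p = 0.00691), its CSDS30 libraries (128, 145, 118, 121 and 133) lying within the control range. In the other direction the smallest p-values belonged to Rpl7l1 (0.16 ± 0.12), Rpl10 (0.26 ± 0.21) and Rps29 (0.17 ± 0.14). The adjusted p-values of all 82 members in this comparison lay between 0.963 and 0.999.

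**Figure D5:**
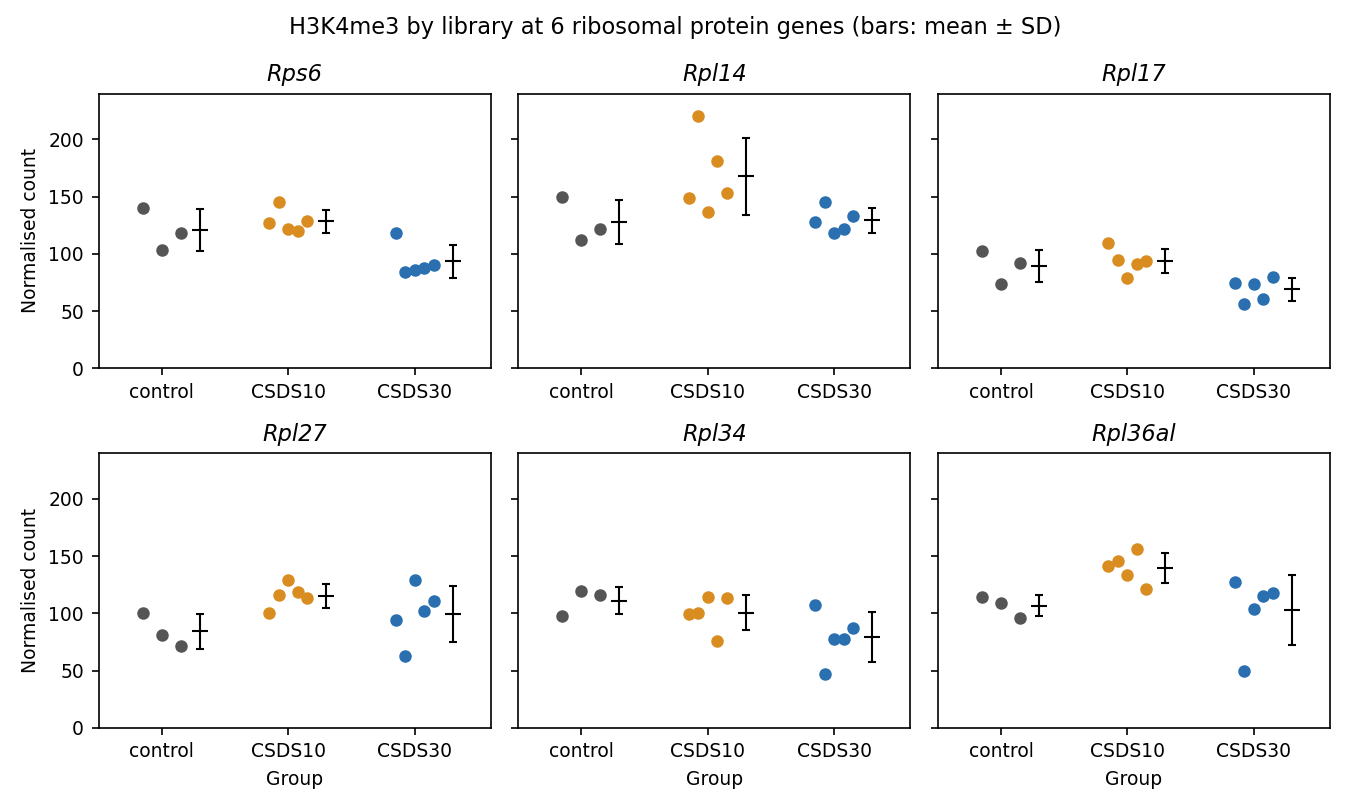
Normalised count in each library (points) with the mean ± SD beside it for 6 ribosomal protein genes in control (n = 3), CSDS10 (n = 5) and CSDS30 (n = 5). The CSDS30 points of Rps6 lie below all CSDS10 points, and CSDS30 replicate 2 is the low point of Rpl34 (46.9) and Rpl36al (49.98).

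The X-linked members did not stand apart in these comparisons. None of the 4 was at unadjusted p under 0.05 in any of them, and their medians were 0.08, -0.03 and -0.11 beside 0.04, -0.07 and -0.12 for the 78 autosomal members. Small-subunit members (32) had 0, 1 and 3 at that p and large-subunit members (50) had 2, 3 and 7, in CSDS10 against control, CSDS30 against control and CSDS30 against CSDS10. The members varied between libraries of a group by a median of 11.6% in control (n = 3), 12.4% in CSDS10 and 12.96% in CSDS30 (n = 5 each, SD over mean). The median of SDs from few libraries tends to be too low, more so for 3 than for 5, so control and defeat groups are not directly comparable here. Counting error alone gives about 8.97%, 9.80% and 9.46%. In coding genes with a control level of 80 to 160, a band chosen after the levels were seen that holds 75 members, the spread was 10.7%, 14.4% and 14.4%, and for those 75 members it was 11.6%, 12.2% and 12.8%.

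Genes that work beside the ribosomal proteins were read from fixed lists in the same fit, and none passed the threshold. Fau, which encodes a ribosomal protein fused to a ubiquitin-like domain and so carries another symbol, had a control level of 129.3 ± 5.28 and was at unadjusted p under 0.05 in no comparison. Of 19 elongation factors and other genes with the pyrimidine tract, 0, 2 and 4 were at that p in the same order of comparisons, all lower. The corresponding shares of all coding genes were 2.8%, 4.91% and 9.74%, of which 4.41% and 9.03% were the lower ones in the comparisons of CSDS30. Eef2, which moves the ribosome along the mRNA, gave -0.40 ± 0.14 in CSDS30 against CSDS10, from 136.4 ± 29.3 to 102.8 ± 19.1. Btf3, which binds nascent chains, gave -0.32 ± 0.15 against control and -0.33 ± 0.13 against CSDS10, and Eif4b gave -0.35 ± 0.15 against control.

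Of 28 ribosome biogenesis genes, 0, 1 and 3 were at unadjusted p under 0.05, all lower, which is near those shares of coding genes. Fbl, the methyltransferase guided by small nucleolar RNAs, had 139.4 ± 14.6 in control, 141.3 ± 11.9 in CSDS10 and 109.9 ± 14.1 in CSDS30, with log2 fold changes of -0.34 ± 0.14 against control and -0.36 ± 0.12 against CSDS10. Of 12 genes of mTOR and cap-binding control, 0, 2 and 1 were at that p, all lower, beside the same shares. Larp1, which binds the pyrimidine tract, gave -0.38 ± 0.17 in CSDS30 against control, from 106.7 ± 19.2 to 81.1 ± 10.4. Rptor, the mTOR partner that recruits substrates, had 111.0 ± 4.47 in control, 135.3 ± 21.0 in CSDS10 and 106.6 ± 8.36 in CSDS30, with 0.27 ± 0.14 in CSDS10 against control and -0.33 ± 0.12 in CSDS30 against CSDS10. In CSDS10 against control these lists had medians of 0.05, 0.03 and 0.02, beside 0.04 for the members and 0.01 for coding genes. In CSDS30 against control they had -0.13, -0.09 and -0.10, beside -0.07 for the members and for coding genes. In CSDS30 against CSDS10 they had -0.06, -0.11 and -0.12, beside -0.12 for the members and -0.08 for coding genes.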

How the data were processed

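H3K4me3 was profiled in 13 ChIP libraries. Per the labels' protocols, chromatin was cut to mononucleosomes with micrococcal nuclease, immunoprecipitated, given 6 to 8 cycles of PCR and read from 1 end over 100 bp. Trimmomatic, Bowtie2, MACS2 and DESeq2 are named in the submitters' processing notes. Not given in the sources used here are their versions and settings, the counting window, and the treatment of duplicates and of reads that match several places, such as processed copies of ribosomal protein genes. The deposited signal is reads per summit divided by a size factor for each library, on mm10, and 100% of values were whole reads within 0.001. The deposited peak score, on a scale not stated, was not used. The input library was not analysed here.

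Genes and promoter windows came from RefSeq (GRCm38.p6). Members without a window have no position or motif. limma 3.58.1 was fitted in R 4.3.3 with a variance trend to log2(signal + 1), a pseudocount that understates changes of low summits, over all 13 libraries with a mean per group. edgeR's filterByExpr kept 152270 summits (937 left out), and p-values were adjusted over all of them (threshold 0.05). edgeR 4.0.16 and DESeq2 1.42.0 on the recovered reads, other pseudocounts, scalings, filters, distances, a replicate block and leaving out libraries were alternatives. The script was tested on simulated data. Reads carry no molecular identifiers and may repeat a molecule, and library depth of 4512817 to 10887911 reads limits the precision.

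Named members were the 4 highest and 4 lowest in control, the 3 with the smallest p per direction in each comparison, fixed genes and paralogues, and 2 genes per related list and comparison. Rpl15, Rpl21, Rpl26, Rplp1, Rps7, Rps10, Rps27a, Rps28 and Rpl35 were named after their values were seen. A few genes under this rule were left out of the report. The members and lists were chosen with earlier results of these data known.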

Additional observations from a re-analysis of the deposited data

Results flagged for a closer look

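Among the 26 members chosen by rule, each of 52 groups of 5 libraries was examined for a library far from the other 4 (a gap to its nearest neighbour above 0.71 of the range), and 3 were found. Chance gives about 1 in 20 groups. Rps6 in CSDS30 replicate 1 had a normalised count of 118.2, above the other 4 at 84.3 to 90.6. Rps25 in CSDS30 replicate 3 had 174.6, above 126.8 to 135.2, and Rpsa in the same library had 163.0, above 101.5 to 115.9. The summits of Rps25 and Rpsa are also the strongest of Trappc4 and Slc25a38. No group of Rpl14, Rpl17, Rpl27, Rpl34 or Rpl36al was found by this measure.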

How the results depend on the processing

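No member was called under any of 31 alternatives in each comparison. In each comparison the differences of the members with the 3 smallest p-values per direction were followed through 23 alternatives, and none turned its direction. Not every alternative could turn one. Leaving out a library of the group not compared, or the filter, keeps a difference as it was. These members were also chosen for small p-values in the main fit. The differences of the other named members were not followed in this way. Summits called stayed at 0 apart from 4 with DESeq2 in CSDS30 against CSDS10. The members' median log2 fold change became 0.01334 in CSDS30 against control and 0.01005 in CSDS30 against CSDS10 with loess offsets, where the median coding gene also moved to -0.01 and -0.001024, and was -0.04336 in CSDS30 against CSDS10 for the sum of summits within 2 kb. Leaving out 1 library at a time gave 0.01318 to 0.07864, -0.09111 to -0.01801 and -0.1351 to -0.0729 in CSDS10 against control, CSDS30 against control and CSDS30 against CSDS10. Members at unadjusted p under 0.05 then numbered 1 to 4, 2 to 6 and 7 to 14, and those whose groups do not overlap 1 to 9, 1 to 7 and 3 to 7. The 9 and the 7 against control came without control replicate 1, where 9.37% and 11.1% of coding genes did not overlap. The control level of 114.8 was 110.9 with TMM and 110.7 with total-read scaling, 116.3 within 5 kb, 528.1 as a sum of summits, and 114.5 to 115.2 without 1 control library. The replicate numbers share no batch or animal in the labels, and deviations of same-numbered libraries correlated at -0.287 to 0.368. Differently numbered pairs were not computed, so these values do not settle whether the numbers pair libraries. With the replicate block the counts of members at unadjusted p under 0.05 were 3, 6 and 10, the medians 0.05764, -0.04993 and -0.1162, and 0 summits were called. With 24 to 272 reads at a member's summit, counting error alone is near 9% of the level in a single library for the median member. A mean over the libraries of a group carries less of it.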
